A study of Mus musculus with 8 samples.

Results

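Kinesins were compared between small intestinal crypts of mice lacking the microRNA locus miR-29ab1 (genotype miR-29ab1-/-, called knockout here) and crypts of wild-type (WT) mice, 4 libraries each. All 8 came from C57BL/6N mice 3 days after irradiation, so every difference given is one of genotype after irradiation. The members were all rows of the deposited table whose symbol begins with Kif or Kifc and a digit, which gave 42 of 17634 genes. By known role they were 13 mitotic kinesins, 17 transport kinesins, 11 kinesins of cilia or of other roles, and Kif1bp, a KIF1-binding protein that is not a motor. The radiation dose, the age and sex of the animals, the cells in which the locus was deleted and any pooling of animals are not stated in the labels. No label says that each library is 1 animal; the p-values therefore cover library-to-library spread, which may be technical.

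Kinesins use ATP to walk along microtubules or to take them apart at their ends. In a dividing cell, mitotic kinesins push the spindle poles apart, move chromosomes, shorten microtubules and bundle the midzone in which the cleavage furrow forms. In a cell at rest, transport kinesins carry vesicles, mitochondria, mRNA and membrane proteins, mostly towards the plus ends, which in an absorptive cell point to the base. Crypts hold both settings, since progenitors divide in the crypt and differentiated cells leave it.

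All 13 mitotic kinesins fell in the knockout, by 1.84-fold to 2.54-fold, with a median log2 fold of −1.12. Of 15 transport kinesins that could be tested, Kif21b, Kifc2, Kifc3 and Kif1b rose, Kif3a fell and 10 did not pass the test, with a median log2 fold of 0.26. Of 7 testable kinesins of the third class, Kif27 rose, Kif24 and Kif26b fell and 4 did not pass. The median log2 fold of all 12908 genes tested was 0.034. In edgeR's quasi-likelihood test, with a Benjamini-Hochberg adjusted p under 0.05, 47.3 percent of all genes differed, 23.1 percent lower and 24.2 percent higher. A count of calls among the kinesins, or in any other list of genes given below, has to be read against those shares. The groups did not overlap in 21 of the 36 kinesins tested, and in 45.4 percent of all genes. The other 6 kinesins, Kif5a, Kif17, Kif26a, Kif28, Kif6 and Kif7, had too few counts to be tested.

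Libraries held 9481201 to 14612798 counts in the knockout and 10719668 to 16231099 in WT. Summed CPM (counts over the library total, scaled by TMM factors to a common depth) of 11 Lgr5+ stem cell markers was 958 to 1566 in knockout and 1580.1 to 1921 in WT libraries, so crypt markers were present in each. Sums of 17 enterocyte markers were 32524 to 105458 and 2930.1 to 13768 CPM, without overlap. All 17 rose, and Lct, Mgam and Vil1 had log2 folds of 4.78, 1.76 and 1.75. The fibroblast sum stood apart in knockout replicates 3 and 4 and WT replicate 3, at 204 to 248 CPM, against 17.6 to 65.4 CPM in the other 5 libraries. Replicate 4 of each genotype had 1 and 3 counts over 4 Y-linked genes, while the others had 1285 to 2061. The deleted microRNA genes were not among the rows analysed here, so the genotype labels were not checked by them. In bulk tissue, fewer cells of a type and less RNA per cell cannot be told apart.

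**Figure D1:**
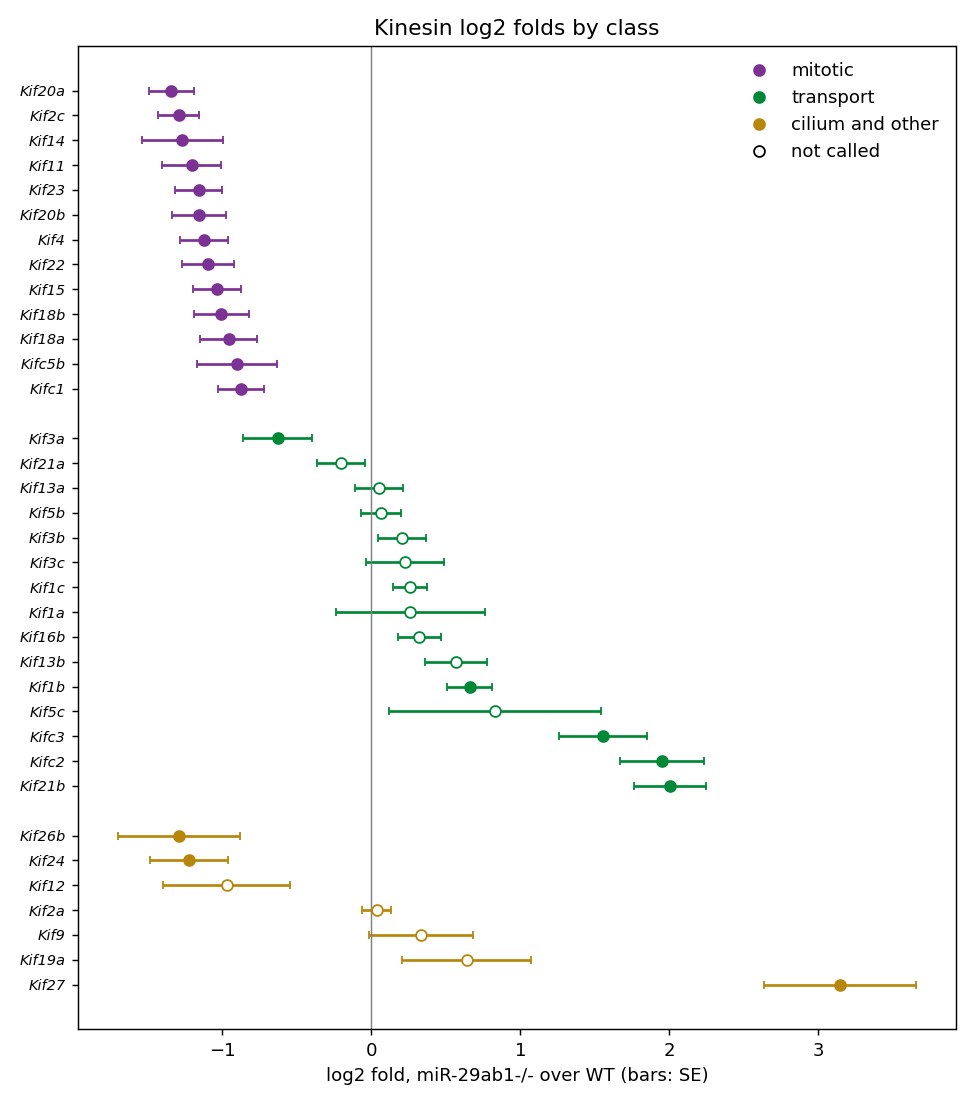
Log2 fold (miR-29ab1-/- over WT) of each tested kinesin, grouped by class; bars are standard errors, filled points passed edgeR's adjusted threshold and open points did not. The 13 mitotic kinesins lie between −1.34 and −0.88, while the transport kinesins run from −0.63 to 2.00.

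Motors that build the spindle fell in every case. Kif11 (Eg5), a tetramer that slides antiparallel microtubules apart and so separates the poles, had 33.9, 52.2, 44.3 and 67.6 CPM in the knockout libraries, against 99.8, 115, 112 and 129 CPM in the wild-type libraries. It fell 2.31-fold (log2 fold −1.21, SE 0.198, edgeR adjusted p = 0.00178). Every knockout library was below every WT library, although knockout replicate 4 stood well above knockout replicate 1. Kif15, which can hold the poles apart alongside Kif11, had 17.1, 23.1, 22.8 and 28.4 CPM in the knockout libraries, against 43.8, 42.4, 45.5 and 55.4 CPM in the wild-type libraries, and fell 2.05-fold (edgeR adjusted p = 0.00154). Kifc1 (HSET), a minus-end-directed motor that focuses the poles, had 18.6, 27.1, 24.9 and 30.03 CPM in the knockout libraries, against 50.8, 41.3, 43.0 and 49.6 CPM in the wild-type libraries. With a drop of 1.84-fold (edgeR adjusted p = 0.00223) it was at the smaller end of the class. Kifc5b, a near-identical copy of Kifc1, had 4.12, 7.07, 6.48 and 9.92 CPM in the knockout libraries, against 13.5, 10.1, 11.5 and 16.3 CPM in the wild-type libraries. It fell 1.87-fold (edgeR adjusted p = 0.0223), and was not called without WT replicate 1 or WT replicate 4 (0.0531 and 0.0640). None of the 8 deposited values of either gene was a whole number, as happens where reads are divided between genes, and the split between these copies is uncertain.

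Chromosome motors and depolymerases fell by similar amounts. Kif2c (MCAK), which takes microtubules apart at centromeres and corrects wrong attachments, had 15.3, 21.04, 17.8 and 22.3 CPM in the knockout libraries, against 49.2, 45.6, 42.7 and 49.8 CPM in the wild-type libraries. Its drop of 2.45-fold (SE 0.136 on the log2 scale, edgeR adjusted p = 0.00108) was among the more precisely measured. The WT libraries lay close together, far above the highest knockout library. Kif18a, which dampens chromosome oscillation at the metaphase plate, had 5.75, 9.02, 7.18 and 9.64 CPM in the knockout libraries, against 17.0, 14.4, 13.4 and 16.6 CPM in the wild-type libraries, and Kif18b, a plus-end depolymerase that works with Kif2c, had 13.7, 20.2, 18.1 and 25.9 CPM in the knockout libraries, against 38.8, 34.4, 39.9 and 43.8 CPM in the wild-type libraries. They fell 1.94-fold and 2.01-fold (edgeR adjusted p = 0.00372 and 0.00249). The chromokinesins, which bind chromatin and push chromosome arms outward, were Kif4 and Kif22. The exons of Kif4 overlap Pdzd11, a protein-coding gene on the opposite strand, in 15.1 percent of bases. Kif4 had 19.99, 26.5, 26.6 and 33.8 CPM in the knockout libraries, against 55.2, 52.0, 57.7 and 68.1 CPM in the wild-type libraries, and fell 2.18-fold. For Kif22 the values were 19.7, 34.0, 22.1 and 29.3 CPM in the knockout libraries, against 62.0, 56.4, 50.3 and 55.8 CPM in the wild-type libraries, a drop of 2.14-fold. In both, every knockout library was below every WT library (edgeR adjusted p = 0.00126 and 0.00161).

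Kinesins of the midzone and of cytokinesis completed the class. Kif23 (MKLP1), the motor of centralspindlin, had 34.0, 43.9, 48.2 and 53.8 CPM in the knockout libraries, against 93.4, 86.7, 105 and 116 CPM in the wild-type libraries. It fell 2.23-fold (edgeR adjusted p = 0.00116). Kif20a (MKLP2), which brings the chromosomal passenger complex to the midzone, had 31.7, 43.9, 39.1 and 51.1 CPM in the knockout libraries, against 108, 111, 92.3 and 109.7 CPM in the wild-type libraries. Its 2.54-fold drop was the largest of the class (log2 fold −1.34, SE 0.151, edgeR adjusted p = 0.00108). Of its exonic bases, 29.3 percent overlap Cdc23, a protein-coding gene on the opposite strand, whose own log2 fold was −0.59. None of the 8 deposited values of Kif20a was whole. Strandedness is not given, so its reads cannot be told fully apart from those of Cdc23. Kif20b (MPP1), which acts late in cytokinesis, had 20.6, 26.0, 27.2 and 36.5 CPM in the knockout libraries, against 58.8, 52.7, 61.4 and 73.0 CPM in the wild-type libraries, and fell 2.23-fold. Kif14, which recruits citron kinase to the midbody, was the lowest of the mitotic kinesins per length, at 1.07 ± 0.459 FPKM in knockout and 3.02 ± 0.847 FPKM in WT (SD, n = 4 each). It had 4.89, 7.25, 10.4 and 10.4 CPM in the knockout libraries, against 16.1, 15.8, 21.2 and 26.0 CPM in the wild-type libraries, a drop of 2.41-fold (edgeR adjusted p = 0.00148 and 0.00492 for Kif20b and Kif14). No mitotic kinesin had a knockout library as high as any WT library.

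**Figure D2:**
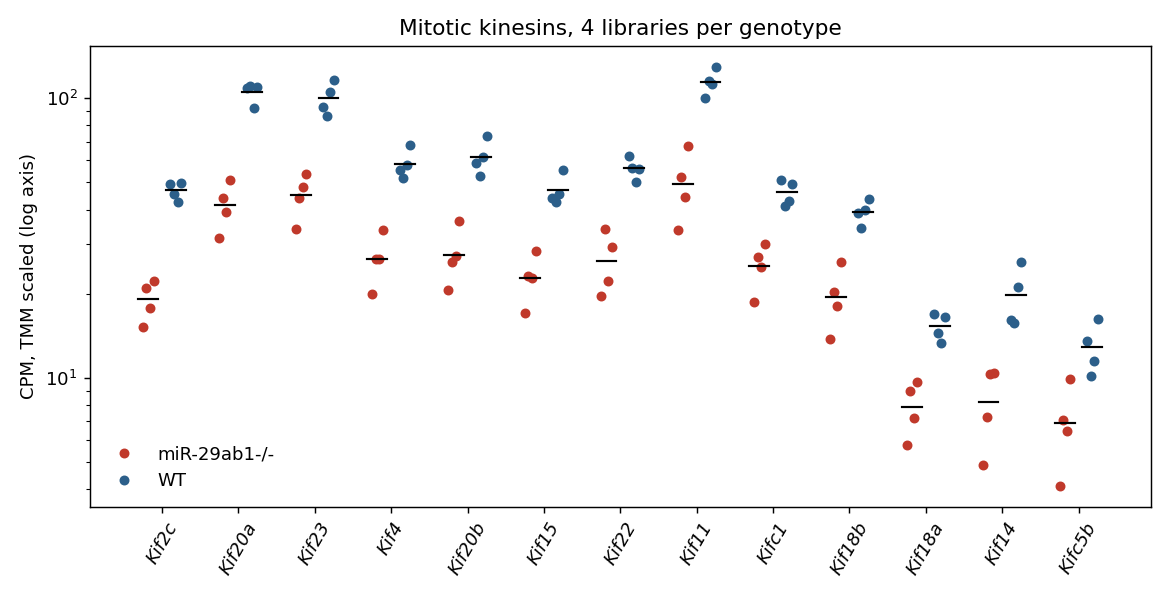
TMM-scaled CPM of the 13 mitotic kinesins on a log axis, 1 point per library and a bar at the mean, miR-29ab1-/- left of WT. In each gene all 4 knockout points lie below all 4 WT points.

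The mitotic kinesins fell beside other genes of cell division. Their summed level was 239, 341, 315 and 409 CPM in the knockout libraries, against 707, 677, 696 and 809.9 CPM in WT. The sum over 21 G2 and M phase genes that are no motors, such as Bub1, Cdc20 and Cenpa, was 929, 1355, 1241 and 1522 CPM in the knockout and 2732, 2716, 2635 and 3114 CPM in WT. As a percentage of that sum, the mitotic kinesins made up 25.8, 25.2, 25.4 and 26.9 in the knockout libraries, against 25.9, 24.9, 26.4 and 26.0 in WT, a mean of 25.8 ± 0.742 against 25.8 ± 0.626 percent (SD, n = 4 each). The ranges overlapped and the means were equal to 3 digits. All 21 of those genes fell, with a median log2 fold of −1.21, as did all 18 S phase genes, with a median of −1.13. Relative to the S phase sum the kinesins were at 23.4 to 27.8 percent in knockout and 24.8 to 27.8 percent in WT. Of the stem cell markers, 7 of 11 fell, with log2 folds of −1.40 for Igfbp4, −1.42 for Ascl2 and −1.02 for Cdca7. The other 4 were not called, with log2 folds of −0.30 for Rnf43, −0.25 for Axin2, −0.32 for Sox9 and 0.47 for Olfm4. The part of cell composition in the result was not tested.

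**Figure D3:**
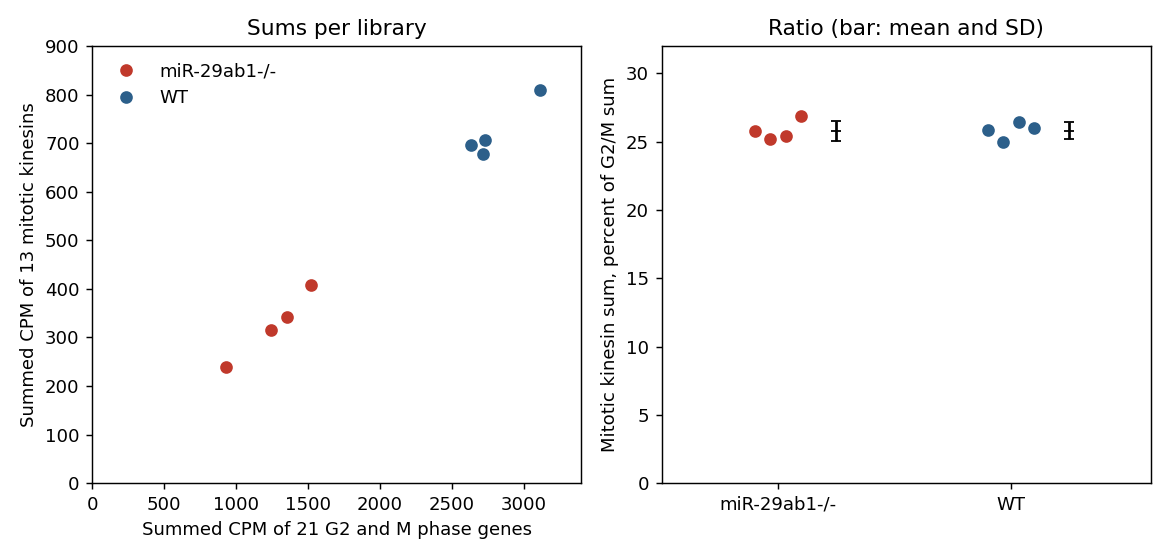
Left, summed CPM of the 13 mitotic kinesins against summed CPM of 21 G2 and M phase genes, 1 point per library. Right, their ratio in percent with mean and SD, miR-29ab1-/- left of WT; it ran from 25.2 to 26.9 percent in knockout and from 24.9 to 26.4 percent in WT libraries.

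Inside the class the mix shifted little. Shares of the class's summed FPKM (fragments per kilobase of transcript and per mapped total, so that genes of different length can be set side by side) overlapped between genotypes in 11 of 13 members. Kifc1 took 11.3 to 12.1 percent in knockout and 9.26 to 10.8 percent in WT libraries, without overlap. Kif20a took 12.4 to 13.1 percent in knockout and 13.5 to 16.2 percent in WT, also without overlap, in the opposite direction. Neither gene had a whole deposited value, as given above.

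Among partners of the mitotic motors, 17 of 20 fell, none rose and 3 did not pass, with a median log2 fold of −1.10. Birc5 (survivin), a subunit of the chromosomal passenger complex that Kif20a carries, fell 2.46-fold to 41.2 ± 5.70 CPM in knockout, against 101 ± 7.22 CPM in WT (SD, n = 4 each). Aurka, the spindle pole kinase, fell 2.58-fold, and Tpx2, which activates Aurka and loads Kif11 and Kif15 on microtubules, 2.47-fold (edgeR adjusted p = 0.00104, 0.00108 and 0.00108). Tubulin, the track itself, fell in 7 of 14 tested genes and rose in 1. Tubb5 had 459 ± 76.3 CPM in knockout and 1100.2 ± 104 CPM in WT, and Tuba1b 596 ± 113 and 1334 ± 182 CPM. They fell 2.40-fold and 2.24-fold, and the γ-tubulin gene Tubg1, which nucleates microtubules, 1.86-fold (edgeR adjusted p = 0.00115, 0.00145 and 0.00116).

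Promoters of mitotic genes often carry a cell cycle homology region (CHR), a short element near the start site to which the DREAM complex and the activator B-MYB–MuvB bind. In the RefSeq promoter table for GRCm38.p6 (250 bases before to 50 after each start), TTTGAA or TTCGAA on either strand was found in 11 of 12 mitotic kinesin promoters listed, 1 of 13 transport kinesin promoters (of 11 genes) and 3 of 11 promoters of the remaining motors (of 9 genes). Among 13140 promoters of tested genes 14.2 percent held it. A window within 30 bases of the start was chosen after the positions were seen. In it, 9 of the 12 mitotic promoters held the element, against 2.49 percent of those of tested genes and none of the 13 transport promoters. Of the 11 promoters of the remaining motors 2 held it there, those of Kif24 and Kif26b. CCAAT or its complement was found in 8 of 12 mitotic and 4 of 13 transport promoters, and in 37.8 percent of those of tested genes. Of the 3 mitotic promoters without a match there, Kif2c had it at position −103 and Kif14 at position −228 from the start, and Kif18a had none. Kif27, which rose, held 3 matches, all farther upstream. Windows from 60 bases before to 40 bases after the start are printed with the matches in capitals, to show the element in its context; they were picked because they hold a match, except that of Kif1c, a transport motor, which holds none. Kif20a, Kif21b, Kifc2, Kifc3, Kif5a, Kif5b, Kif13b, Kif19a and Kif28 had no entry in the table used. The windows of Kif26b and Kifc5b, which also hold a match, are not printed. A match is a string in a window, not a bound site.
Kif11 (chr19:37376322-37376421, plus strand): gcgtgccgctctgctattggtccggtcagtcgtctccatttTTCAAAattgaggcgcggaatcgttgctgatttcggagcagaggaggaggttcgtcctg
Kif15 (chr9:122951021-122951120, plus strand): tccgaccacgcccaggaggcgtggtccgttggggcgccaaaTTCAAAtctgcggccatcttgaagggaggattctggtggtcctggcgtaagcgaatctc
Kif18b (chr11:102925085-102925184, minus strand): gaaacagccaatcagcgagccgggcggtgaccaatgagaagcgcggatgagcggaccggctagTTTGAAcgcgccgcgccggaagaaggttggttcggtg
Kif20b (chr19:34922298-34922397, plus strand): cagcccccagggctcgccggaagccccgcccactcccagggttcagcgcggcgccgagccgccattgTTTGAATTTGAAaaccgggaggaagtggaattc
Kif22 (chr7:127042381-127042480, minus strand): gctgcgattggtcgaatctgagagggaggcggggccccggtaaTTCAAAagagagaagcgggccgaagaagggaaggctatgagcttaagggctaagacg
Kif23 (chr9:61946760-61946859, minus strand): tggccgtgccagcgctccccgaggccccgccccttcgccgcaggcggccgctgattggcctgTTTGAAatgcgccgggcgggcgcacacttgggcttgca
Kif4 (chrX:100626005-100626104, plus strand): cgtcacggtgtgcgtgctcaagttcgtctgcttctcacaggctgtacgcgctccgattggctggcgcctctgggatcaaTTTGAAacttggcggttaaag
Kifc1 (chr17:33890594-33890693, minus strand): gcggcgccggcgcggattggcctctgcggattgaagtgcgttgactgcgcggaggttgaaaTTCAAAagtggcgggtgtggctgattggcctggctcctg
Kif24 (chr4:41464809-41464908, minus strand): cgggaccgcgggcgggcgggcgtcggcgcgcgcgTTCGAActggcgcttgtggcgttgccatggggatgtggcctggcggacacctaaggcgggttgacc
Kif1c (chr11:70700488-70700587, plus strand): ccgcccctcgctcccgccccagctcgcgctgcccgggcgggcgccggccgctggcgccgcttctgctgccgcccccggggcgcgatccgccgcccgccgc

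Kif24, a depolymerase at centrioles that restrains the growth of cilia, was placed outside the mitotic class and also fell. It had 4.29, 5.04, 5.68 and 8.61 CPM in the knockout libraries, against 13.3, 9.60, 14.9 and 17.2 CPM in the wild-type libraries. The drop was 2.33-fold (log2 fold −1.22, SE 0.263, edgeR adjusted p = 0.00514), and its promoter was among those with a match near the start. By contrast, Kif2a, a close relative of Kif2c that also acts outside mitosis, had 72.5, 63.5, 58.7 and 58.7 CPM in the knockout libraries, against 61.3, 58.5, 64.7 and 62.9 CPM in the wild-type libraries. The groups overlapped almost fully (log2 fold 0.034, SE 0.100, edgeR adjusted p = 0.800), and the promoter table gave no match for it. A link between a match and a change in level was not tested. The exons of Kif2a overlap 19.2 percent with Dimt1, a protein-coding gene on the opposite strand, which had a log2 fold of −1.16. None of the 8 deposited values of Kif2a was whole. Strandedness is not given, so its reads cannot be told fully apart from those of Dimt1.

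Of the 15 transport kinesins tested, 10 were not called, 4 rose and 1 fell, and 3 of those that rose did so by more than 2.9-fold. The median log2 fold of the class was 0.26, against 0.034 over all genes tested. Kif21b, a motor known from neurons and lymphocytes that also limits microtubule growth, had 133, 87.8, 96.2 and 126 CPM in the knockout libraries, against 34.7, 27.6, 31.9 and 16.5 CPM in the wild-type libraries. It rose 4.01-fold (log2 fold 2.00, SE 0.240, edgeR adjusted p = 0.00108), and its lowest knockout library was above 2 times its highest WT library. Its paralogue Kif21a had 24.3, 29.3, 30.8 and 38.2 CPM in the knockout libraries, against 31.2, 31.8, 35.4 and 42.7 CPM in the wild-type libraries, which overlap (log2 fold −0.21, SE 0.160, edgeR adjusted p = 0.316). Kif21b thus made up 68.8 to 79.5 percent of the FPKM of the pair in knockout, against 22.0 to 44.3 percent in WT. Lymphocyte markers summed to 792, 313, 1670 and 218 CPM in knockout replicates 1 to 4 and to 450.5, 465, 375 and 57.3 CPM in WT replicates 1 to 4. None of the 9 tested lymphocyte genes passed the test, and their median log2 fold was 1.13. WT replicate 4 had both the lowest lymphocyte sum and the lowest Kif21b level, while knockout replicate 3, with the highest lymphocyte sum, was not the highest in Kif21b. Of 16 markers of neurons and glia 4 could be tested, and Prph, Ret and Snap25 rose. The sums were 17.6 to 23.7 CPM in knockout and 8.04 to 14.4 CPM in WT. Mean levels in knockout and WT were 13.3 and 7.46 CPM for Ret, 0.978 and 0.136 CPM for Prph, and 1.68 and 0.709 CPM for Snap25. Prph and Snap25 were thus near the detection limit, and the groups overlapped in Snap25. Markers of goblet, tuft and enteroendocrine cells were higher as well. Goblet cell markers rose in 7 of 9 (sums of 9329.9 to 15048 CPM in knockout and 2029 to 4663 CPM in WT). Tuft cell markers rose in 7 of 8 (64.9 to 81.5 and 22.1 to 30.9 CPM in knockout and WT), and enteroendocrine markers in 6 of 15 (762 to 964 and 378 to 702 CPM in knockout and WT). None of these 3 sums overlapped between genotypes, nor did that of enterocytes given above. The sums of Paneth cell markers did overlap (11079 to 35026 and 9961 to 14294 CPM in knockout and WT), and 1 of 7 tested rose. The part of these cell types in the transport kinesin results was not tested.

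The minus-end-directed transport motors, Kifc2 and Kifc3, both rose. Kifc3, which acts in epithelia at adherens junctions and in apical transport, had 34.4, 30.8, 29.5 and 28.0 CPM in the knockout libraries, against 7.19, 5.65, 16.0 and 12.7 CPM in the wild-type libraries. It rose 2.94-fold (log2 fold 1.56, SE 0.297, edgeR adjusted p = 0.00305). The knockout libraries were close to each other and the WT libraries were spread, with replicates 1 and 2 lower than replicates 3 and 4. Kifc2, first described in neurons, was low, with 5.32, 5.92, 9.37 and 7.11 CPM in the knockout libraries, against 1.41, 2.42, 1.85 and 1.49 CPM in the wild-type libraries. It rose 3.87-fold (SE 0.281 on the log2 scale, edgeR adjusted p = 0.00123), from counts of 62 to 94 per knockout library and 20 to 31 per WT library. Groups did not overlap in either gene.

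Among the kinesins that carry vesicles and mitochondria, Kif1b rose and its relatives were not called. Kif1b, which carries mitochondria and synaptic vesicle precursors in neurons, had 92.3, 62.8, 81.0 and 85.1 CPM in the knockout libraries, against 47.1, 42.6, 58.2 and 55.3 CPM in the wild-type libraries. The rise was 1.58-fold (log2 fold 0.66, SE 0.149, edgeR adjusted p = 0.00643). Scaled by total counts, which placed the median log2 fold of all genes at −0.23, its log2 fold was 0.39 and the call was lost (edgeR adjusted p = 0.135). It was also lost with limma on log2(FPKM + 1), at a log2 fold of 0.28 (adjusted p = 0.249), and the FPKM of the groups overlapped. Kif1c, a motor of Golgi vesicles and mRNA, was the most abundant member of the subfamily, with 259, 230.0, 276 and 262 CPM in the knockout libraries, against 219, 194, 211 and 234 CPM in the wild-type libraries. Its log2 fold was 0.26 (SE 0.114, edgeR adjusted p = 0.0902), and WT replicate 4 was above knockout replicate 2. Kif1a, the neuronal member, had 1.80, 0.530, 1.80 and 2.25 CPM in the knockout libraries, against 1.76, 1.79, 1.26 and 0.551 CPM in the wild-type libraries, and was not called (edgeR adjusted p = 0.692). Kif16b, which moves early endosomes, had 40.8, 35.2, 31.3 and 43.9 CPM in the knockout libraries, against 31.6, 24.8, 30.4 and 34.1 CPM in the wild-type libraries. It was not called (log2 fold 0.32, edgeR adjusted p = 0.0913), but was with replicate number as a block (edgeR adjusted p = 0.0356).

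Conventional kinesin was not called. Kif5b, the heavy chain found in all tissues, had 271, 236, 258 and 256 CPM in the knockout libraries, against 225, 208, 253 and 292 CPM in the wild-type libraries (log2 fold 0.063, SE 0.133, edgeR adjusted p = 0.720). It held 98.3 to 99.6 percent of the FPKM of the 3 Kif5 genes in knockout and 99.3 to 99.9 percent in WT. The neuronal heavy chains were near the detection limit: Kif5c had 1.37, 0.354, 3.49 and 0.468 CPM in the knockout libraries, against 1.13, 0.897, 0.837 and 0.330 CPM in the wild-type libraries, with the highest value in knockout replicate 3, and Kif5a had 13, 7, 15 and 15 counts in the knockout libraries and 6, 5, 7 and 2 counts in WT, too few for the test. The groups overlap in Kif5c and meet at 7 counts in Kif5a. Heavy chains bind cargo through light chains and adaptors. Of 24 such genes tested 8 rose, 1 fell and 15 did not pass, with a median log2 fold of 0.23. Among all genes tested, 24.2 percent rose and 23.1 percent fell. Arl8a, a lysosomal GTPase that recruits kinesin, rose 2.43-fold to 66.4 ± 13.5 CPM, against 27.3 ± 0.976 CPM in WT. The light chain gene Klc4 rose 3.10-fold to 149 ± 43.1, against 48.1 ± 14.7 CPM in WT, and the adaptor Fez2 2.71-fold (SD, n = 4; edgeR adjusted p = 0.00108, 0.00182 and 0.00204). Kif1bp, the KIF1-binding protein, had 11.6, 13.7, 16.0 and 13.8 CPM in the knockout libraries, against 13.7, 13.5, 14.6 and 12.3 CPM in the wild-type libraries (edgeR adjusted p = 0.898).

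The kinesin-2 motor, which drives intraflagellar transport in cilia and moves junction proteins, is built from Kif3a, Kif3b or Kif3c and the accessory subunit Kifap3. Kif3a had 7.55, 5.13, 9.07 and 10.2 CPM in the knockout libraries, against 10.6, 10.6, 13.9 and 14.3 CPM in the wild-type libraries, and fell 1.55-fold at the edge of the threshold (SE 0.231 on the log2 scale, edgeR adjusted p = 0.0492). It lost its call when any 1 WT library was left out, or knockout replicate 1 or 2 (edgeR adjusted p from 0.0586 to 0.119), and in replicates 1 to 3 alone (0.0570). Kif3b had 34.6, 29.1, 44.7 and 39.6 CPM in the knockout libraries, against 30.3, 26.3, 34.7 and 36.9 CPM in the wild-type libraries, which overlap (log2 fold 0.20, edgeR adjusted p = 0.317). Kif3c had 3.52, 5.04, 7.48 and 4.02 CPM in the knockout libraries, against 4.09, 4.305, 4.12 and 4.63 CPM in the wild-type libraries, also overlapping (edgeR adjusted p = 0.508), and 35.3 percent of its exonic bases overlap an antisense gene. Within the 3 genes, Kif3a took 13.8 to 19.8 percent of the FPKM in knockout and 24.7 to 27.4 percent in WT, and Kif3b 74.0 to 76.3 and 64.4 to 67.8 percent, neither overlapping. Kifap3 fell 1.36-fold (edgeR adjusted p = 0.0255). Of 19 intraflagellar transport genes 3 fell, Ttc21b, Ift74 and Ift80, and Ift20 rose, with log2 folds of −1.16, −0.57, −0.74 and 1.12. Among all genes tested, 23.1 percent fell and 24.2 percent rose.

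Kif13a and Kif13b carry endosomes and polarity proteins. Kif13a had 87.8, 78.8, 97.0 and 121 CPM in the knockout libraries, against 85.5, 77.5, 99.7 and 109 CPM in the wild-type libraries, with no separation between genotypes (log2 fold 0.049, SE 0.161, edgeR adjusted p = 0.821). Kif13b had 58.6, 40.6, 87.0 and 65.1 CPM in the knockout libraries, against 40.5, 36.3, 45.9 and 46.6 CPM in the wild-type libraries. Knockout replicate 2 lay within the WT range, and the gene missed the threshold narrowly (log2 fold 0.57, SE 0.209, edgeR adjusted p = 0.0501); with replicate number as a block, and without knockout replicate 2, it was called higher (edgeR adjusted p = 0.0123 and 0.0114), as it was with DESeq2 (0.0249) and among genes averaging 50 counts or more (0.0429). Kif13b held 28.4 to 40.8 percent of the FPKM of the pair in knockout and 24.9 to 26.8 percent in WT. Kif17, a dendritic and ciliary motor, had at most 9 counts in any library.

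**Figure D4:**
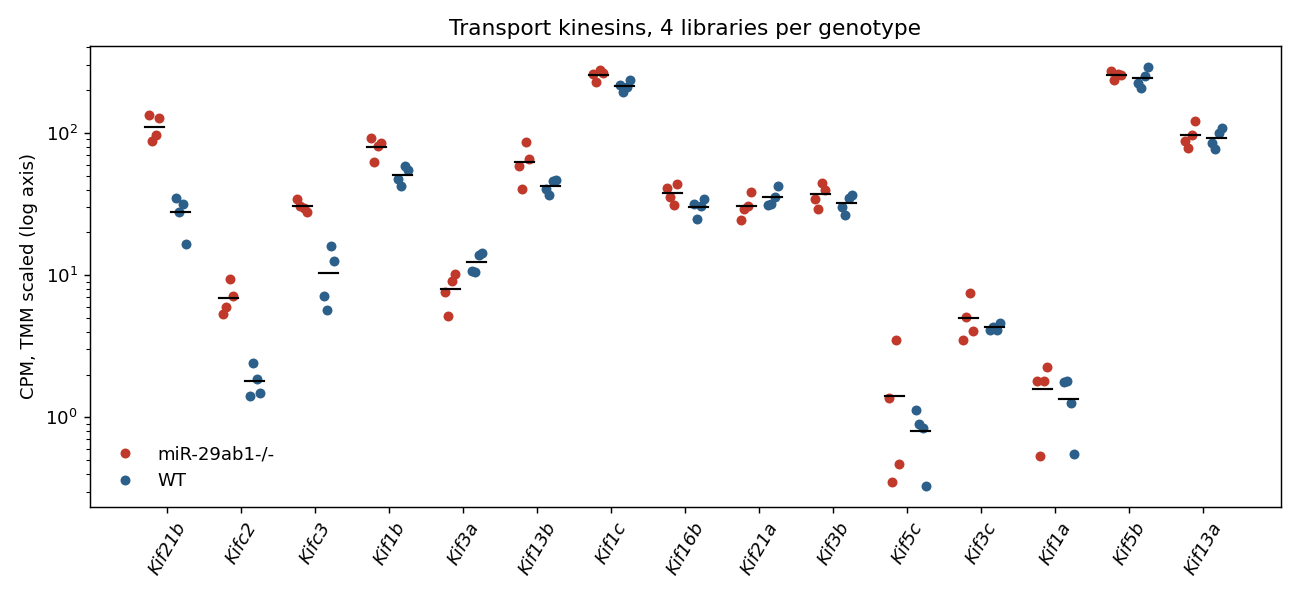
TMM-scaled CPM of the 15 tested transport kinesins on a log axis, 1 point per library and a bar at the mean, miR-29ab1-/- left of WT. Kif21b, Kifc2, Kifc3 and Kif1b are separated with the knockout higher, and Kif3a with the knockout lower.

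**Figure D5:**
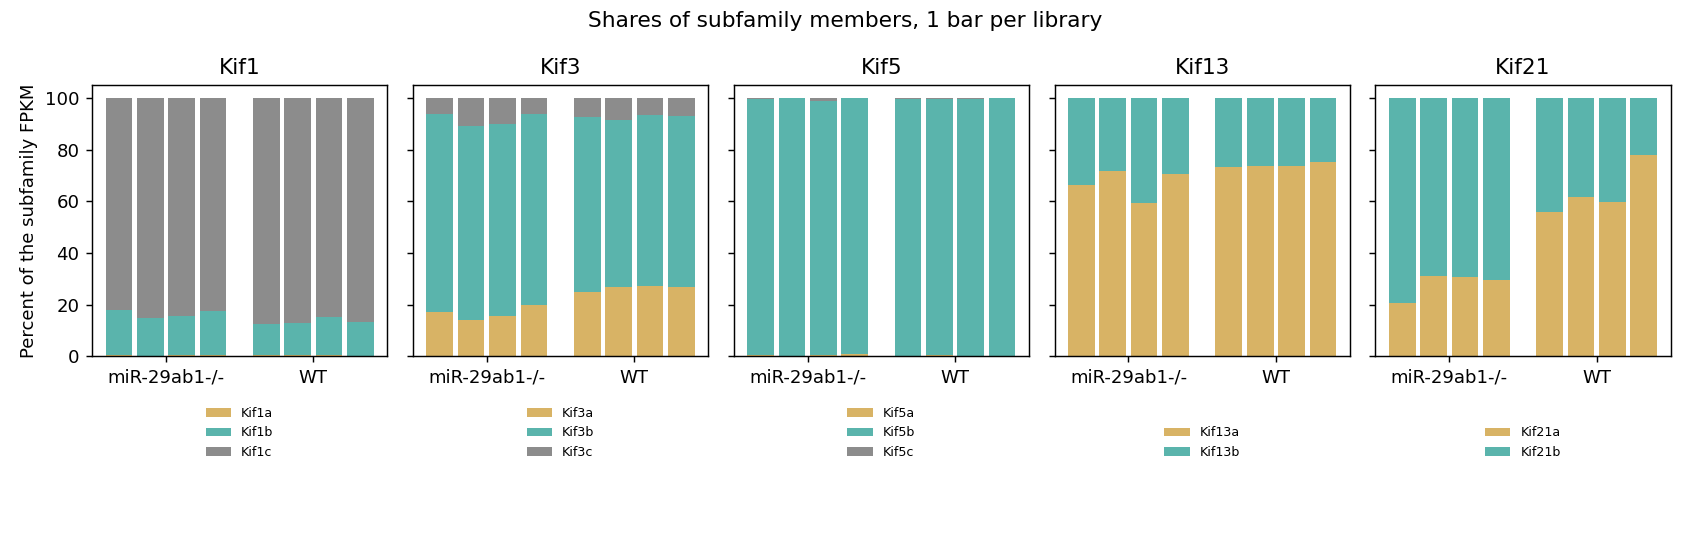
Share of each member in the summed FPKM of its subfamily, 1 stacked bar per library, miR-29ab1-/- left of WT. Kif21b takes 68.8 to 79.5 percent of its pair in knockout and 22.0 to 44.3 percent in WT, while Kif5b takes over 98 percent of Kif5 in each library.

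Of the kinesins of cilia and of other roles, Kif27 had the largest fold of the family. Kif27, a relative of the Hedgehog regulator Kif7 needed for motile cilia, had 8.41, 6.28, 2.79 and 3.18 CPM in the knockout libraries, against 0.564, 0.717, 0.837 and 0.220 CPM in the wild-type libraries. It rose 8.84-fold (log2 fold 3.14, SE 0.510, edgeR adjusted p = 0.00170), from 98, 71, 28 and 34 counts in knockout and 8, 8, 14 and 4 counts in WT libraries. Knockout replicates 1 and 2, with the larger enterocyte sums (105458 and 89350 CPM, against 32524 and 49823 CPM in replicates 3 and 4), had the larger values. The WT libraries did not follow that order: replicate 3 had the highest Kif27 level with an enterocyte sum of 5169 CPM, against 13768 and 13695 CPM in replicates 1 and 2. The part of enterocyte content was not tested. Kif26b, an atypical member that acts in kidney development, fell 2.45-fold with 1.29, 1.15, 3.09 and 0.936 CPM in the knockout libraries, against 3.17, 3.68, 3.35 and 5.56 CPM in the wild-type libraries (edgeR adjusted p = 0.0278). Leaving out knockout replicate 1 ended its call (edgeR adjusted p = 0.0589), as did leaving out WT replicate 2 (0.0507) or WT replicate 4 (0.0826); in replicates 1 to 3 alone it was not called either (0.112). Kif12, known from kidney epithelium, had 1.29, 2.30, 2.69 and 4.02 CPM in the knockout libraries, against 4.72, 2.96, 3.83 and 8.59 CPM in the wild-type libraries and was not called (log2 fold −0.97, edgeR adjusted p = 0.0891), but was lower with the replicate block (0.0337). Kif9 and Kif19a, both of motile cilia, were low and not called, at 1.33 to 2.29 and 0.686 to 1.80 CPM in knockout and 0.936 to 1.97 and 0.359 to 1.14 CPM in WT. Kif7 had 1 to 11 counts in any library, and Kif26a, Kif6 and Kif28 at most 6.

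Set side by side per length, the order of the motors differed between genotypes. In knockout libraries Kif1c (40.9 ± 8.08 FPKM) and Kif5b (39.6 ± 5.86 FPKM) came first, within each other's spread, followed by Kif2a (17.3 ± 1.25 FPKM), Kif13a (13.1 ± 3.79 FPKM) and Kif23 (13.03 ± 3.79 FPKM; SD, n = 4). In WT libraries Kif5b (45.7 ± 8.70 FPKM) and Kif1c (41.2 ± 5.16 FPKM) were followed by the mitotic kinesins Kif23 (34.9 ± 6.01 FPKM), Kif20a (34.4 ± 1.57 FPKM) and Kif22 (31.7 ± 1.37 FPKM), of which Kif23 and Kif20a did not differ beyond their spread. Mitotic kinesins made up 27.3, 39.2, 32.7 and 38.5 percent of all kinesin FPKM in the knockout libraries, against 59.3, 60.6, 55.7 and 57.6 percent in WT. That share carries no scaling factor between libraries, and the genotypes did not overlap in it. The transport kinesins summed to 878 to 1092 CPM in knockout and 695 to 901 CPM in WT libraries, which overlap. The opposing motor, cytoplasmic dynein with dynactin, had 7 genes higher, 4 lower and 16 not called of 27, with Dynll1, a light chain, down 2.01-fold and the adaptors Bicdl1 and Hook2 up 1.88-fold and 1.70-fold. Microtubule-associated proteins had 5 higher and 5 lower of 21, among them Dst (2.31-fold higher), Camsap3, which anchors minus ends at the apical side of epithelia (1.56-fold higher), and Mapre3 (3.85-fold higher). Of all genes, 24.2 percent were higher and 23.1 percent lower. The shares called among microtubule-associated proteins, and the share of dynein and dynactin genes called higher, were near those. The share of dynein and dynactin genes called lower, 4 of 27, was smaller.

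Another locus encodes further copies of this family, miR-29b and miR-29c, with an equal seed. The deleted locus encodes miR-29a and miR-29b, which share a seed (bases 2 to 8, in capitals) and so the match TGGTGCT in a 3′ UTR. Their mature sequences, from the RefSeq table for GRCm38.p6, were as follows.
mmu-miR-29a-3p (chr6:31062673-31062694, minus strand): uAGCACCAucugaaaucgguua
mmu-miR-29b-3p (chr6:31063025-31063047, minus strand): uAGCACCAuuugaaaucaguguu

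Of the 36 kinesins tested, 8 held this match in their longest annotated 3′ UTR (GENCODE M21 on GRCm38), 22.2 percent, against 15.5 percent of 12648 tested genes with a UTR. They were 2 of 13 mitotic, 5 of 15 transport and 1 of 7 others, and UTRs were longer in the transport class (median of 2993 bases, against 528 bases in the mitotic class). Of the 8, Kif21b rose, Kif18b, Kif14 and Kif26b fell, and Kif13b, Kif3b, Kif3c and Kif1a were not called. The site of Kif21b, the member with the largest rise among them, and those of Kif18b and Kif14, which fell, are printed with the match in capitals.
Kif21b (chr1:136175323-136175352, plus strand): tgcttctcccctTGGTGCTgtggactcagc
Kif18b (chr11:102905759-102905788, minus strand): gcttagctctccTGGTGCTaaacacagcat
Kif14 (chr1:136528083-136528112, plus strand): acttcaccacccTGGTGCTgtctagctggt

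The median log2 fold was 0.21 in the 8 kinesins with a match and −0.42 in the 28 without, a split that follows the classes. Within the mitotic class it was −1.14 with and −1.12 without a match, and within the transport class 0.26 and 0.29. Over all tested genes it was 0.041 with and 0.030 without.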

How the data were processed

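RNA from small intestinal crypts of knockout and wild-type mice was sequenced in 4 libraries each, and genotype and replicate number came from the labels. The submitters' processing notes name HISAT2 and DESeq2, with no role or version; the counting program, genome build, annotation and strandedness were not found in the labels or header. The authors deposited estimated counts per gene, per the file headers, of which 8.04 to 9.18 percent were not whole; they were rounded. A second set of deposited values, whose header gives no unit, was taken as FPKM, because each value over its count follows the library total; these FPKM served for levels per length and for 1 alternative test.

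The test was edgeR 4.0.16 run under R 4.3.3 on those rounded counts (filterByExpr, then TMM, glmQLFit and glmQLFTest, genotype alone), adjusted over 12908 genes by Benjamini-Hochberg with a threshold of 0.05; the code was tested on simulated counts. The SE is the log2 fold divided by the square root of F. Levels are CPM with TMM factors. DESeq2 1.42.0 and limma 3.58.1 were alternatives, and limma was also run on log2(FPKM + 1) for genes with a mean of at least 0.5. The members, classes, lists and alternatives were chosen with earlier results of these data known. All members are named, with values per library for those called, for the Kif1, Kif3, Kif5 and Kif13 sets and for those with a mean of at least 50 counts; of the other lists, up to 3 genes with the smallest p are named, and all where 5 or fewer were called. List genes named beyond these were chosen after their values were seen.

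Same-numbered libraries of the 2 genotypes deviated together (correlations of 0.31 to 0.52 over genes, against −0.48 to 0.45 for other numbers), so a fit with replicate number as a block is given beside results whose call it changes; no label gives the meaning of a number, and the main test has no block. No library repeated another: the closest, WT replicates 1 and 2, differed by 6.04 times the variance that sampling gives.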

Additional observations from a re-analysis of the deposited data

Results flagged for a closer look

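In 72 groups of 4 libraries (36 kinesins in each genotype), 2 held a library far from the other 3 by Dixon's criterion, where chance gives about 1 in 20 groups. Kif26b was at 3.09 CPM in knockout replicate 3, against 0.936 to 1.29 CPM in the other knockout libraries; that library also had the highest fibroblast sum, 248 CPM. Kif20a was at 92.3 CPM in WT replicate 3, against 108 to 111 CPM in the other WT libraries.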

How the results depend on the processing

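All 13 mitotic kinesins were called lower under each alternative without a library left out, and 12 or 13 with 1 left out; Kifc5b lost its call without WT replicate 1 or 4 (edgeR adjusted p = 0.0531 and 0.0640). With Kif24 and other members of more than 1 role moved between classes, 14 were called. Scaling by total counts put the median of the mitotic class at −1.38 and that of the transport class at 0.034, and limma on log2(FPKM + 1) put the transport median at −0.022; both settings also lowered the median of all genes, to −0.23 and −0.21. With the FPKM, 2010 genes were called higher and 4318 lower, and with total counts 2089 and 4011. Transport kinesins called higher numbered 3 to 6 across all alternatives, against 4 as reported. The count called lower was 0 among genes averaging 50 counts or more and in replicates 1 to 3 alone, and 0 to 1 with 1 library left out.

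Log2 folds of uncalled members changed sign as follows. With limma on FPKM, Kif1c was at −0.022, Kif16b −0.093, Kif3b −0.058, Kif3c −0.020, Kif5b −0.20, Kif13a −0.21, Kif2a −0.24 and Kif1bp −0.14. With total counts, Kif3b was at −0.046, Kif3c −0.010, Kif5b −0.21, Kif13a −0.21, Kif2a −0.25 and Kif1bp −0.23. With upper-quartile factors, Kif5b was at −0.032, Kif13a −0.043, Kif2a −0.063 and Kif1bp −0.066, and with no filter Kif2a −0.0009 and Kif1bp −0.010. In replicates 1 to 3 alone, Kif1a was at −0.26, Kif13a −0.042 and Kif1bp −0.064, and with the replicate block there −0.33, −0.032 and −0.069. Without the 3 libraries with the highest fibroblast sums, Kif3c was at −0.011, Kif1a −0.19, Kif13a −0.12 and Kif1bp −0.048. With 1 library left out, the range was −0.096 to 1.08 for Kif5c, −0.033 to 0.31 for Kif3c, −0.010 to 0.50 for Kif1a, −0.016 to 0.16 for Kif5b, −0.13 to 0.13 for Kif13a, −0.081 to 0.068 for Kif2a and −0.054 to 0.060 for Kif1bp. The cause was not tested. The replicate block gave 3672 genes higher and 3554 lower, and among the kinesins it changed the calls of Kif13b, Kif16b and Kif12 alone. Settings with replicates 1 to 3 alone and without the libraries with high fibroblast sums were chosen after seeing the data. Counts under about 10 per library, as in Kif17 or Kif7, left those members untested.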
